A study of Homo sapiens with 9 samples.

Results

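HNT34 is a human acute myeloid leukaemia (AML) cell line with a rearrangement of chromosome 3 and high EVI1 expression. The 3 libraries of cells transduced with EVI1 sh#87 were compared with the 3 libraries of cells transduced with a non-targeting shRNA (NT), which are 6 of the 9 libraries sequenced. The libraries were chosen by their titles, and a label field of the sh#87 libraries gives the number 18 for the same shRNA. The other 3 libraries carry a different EVI1-directed shRNA, sh#16, and are used below only where both shRNAs are compared. All groups received the same lentiviral backbone, pZIP-hEF1a-RFP-Puro, which carries red fluorescent protein and puromycin resistance, and RNA was collected 3 days after selection. The control therefore shares the virus, the drug selection and the time, and differs in the shRNA sequence. HNT34 is the only line in the series, and the labels do not say whether the libraries of a group came from separate cultures, so the p-values measure the spread between these libraries, which may be technical.

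EVI1 is a zinc finger transcription factor encoded by the MECOM locus on the long arm of chromosome 3. It is needed for the upkeep of haematopoietic stem cells, is low in most mature blood cells and recruits corepressors such as CtBP, histone deacetylases and DNA methyltransferases. Rearrangements that place a strong enhancer beside MECOM keep EVI1 high in a group of AMLs with a poor outcome. The comparison asks which genes and processes change in such cells when EVI1 mRNA is reduced.

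Poly(A)-selected, strand-specific RNA was sequenced to between 26966189 and 31268456 counts in the NT and between 18310242 and 22758610 counts in the sh#87 libraries. Levels are given in CPM, counts scaled to the library size by the TMM method of edgeR, and are not divided by gene length. Of 16612 genes in the table, 16312 passed the filter on low counts and were tested. The NT libraries differed more among themselves, with a biological coefficient of variation of 25.0%, than the sh#87 libraries, with 6.95%. Mitochondrially encoded genes took 15.9%, 11.6% and 4.69% of the counts in NT libraries 1, 2 and 3, and between 4.62% and 5.97% in the sh#87 libraries. Compared with NT library 3, genes in the highest of 5 equal sets by GC content had a median log2 difference of -0.72 in NT library 1 and of -0.35 in NT library 2. The same set had a median log2 fold change of 0.72 between the sh#87 and NT groups, and the lowest set one of -0.45. NT library 3 was also the nearest to the mean of the sh#87 group, with a median absolute log2 distance over all genes of 0.73 against 0.82 for NT library 2 and 0.90 for NT library 1. The part of the GC trend in the results was not tested. A fit in which each library's trend on gene length and GC content was removed is given beside the gene lists in which it moved the number higher or lower by more than 1.5 times, where either count was at least 4.

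All 7 haematopoietic markers checked were in the table, and their summed level was 2844 to 2946 CPM in NT and 1182 to 1214 CPM in sh#87 libraries. PTPRC, which encodes the leukocyte antigen CD45, fell from 895, 850.5 and 821 CPM to 103, 101 and 96.4 CPM (log2 fold change -3.10, SE 0.07, adjusted p = 5.40e-09, where SE is the standard error). CD34, another of the 7, fell from a mean of 731 CPM in NT to 42.4 CPM with sh#87. PTPRC and CD34 made up most of the fall in the sum, which therefore does not show a fall of every marker. In RNA from whole cultures, less RNA per cell and fewer cells that express a gene cannot be told apart. The summed levels of the markers of other cell types in the table were lower with sh#87, except for the fibroblast marker COL1A1. The endothelial markers PECAM1, CDH5 and VWF had a summed level of 409 to 561 CPM in NT and 53.5 to 55.6 CPM in sh#87 libraries. Of 4 fibroblast markers only COL1A1 was in the table, and it is described with the genes of highest fold change. The T cell markers in the table (2 of 4) went from 7.27 to 10.1 CPM in NT to 3.36 to 3.93 CPM with sh#87, and the B cell markers (2 of 3) from 13.8 to 40.3 CPM to 1.42 to 1.92 CPM. The epithelial keratins KRT8 and KRT18 together stood at 126 to 138 CPM in NT and 69.8 to 77.0 CPM with sh#87. The epithelial markers EPCAM and CDH1 and the neuronal genes NEFM, NEFL and STMN2, which mark packaging cells, were not in the table.

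The targeted gene was measured first. MECOM stood at 571, 504 and 440.5 CPM in NT libraries 1, 2 and 3 and at 109, 107 and 106 CPM in the sh#87 libraries, with between 2082 and 2627 reads in each of the latter. All sh#87 libraries lay below all NT libraries, as in 37.6% of all genes tested. The sh#87 libraries differed from each other by less than the NT libraries did. The fall passed the test (log2 fold change -2.23, SE 0.09, adjusted p = 6.91e-08, edgeR's quasi-likelihood test), and the log2 fold change was -1.79 after the length and GC correction, whereas an exact 2-sided permutation test of 3 against 3 libraries cannot go below its value here, p = 0.1. Counts per gene do not separate EVI1 from the longer MDS1-EVI1 transcript of the same locus. Of 18 genes from 3q21 and 3q26, 15 were tested. The orphan receptor gene GPR160 fell from 3.97 to 5.63 CPM to 0.134 to 0.356 CPM (log2 fold change -4.35, SE 0.39, adjusted p = 7.66e-06). MYNN, a zinc finger gene near MECOM, also fell, from 39 to 50.6 CPM to 22.4 to 24.7 CPM, a log2 fold change of -0.93 that no longer passed the test after the length and GC correction. EEFSEC, the elongation factor for selenocysteine, rose from 10.2 to 14.7 CPM to 27.4 to 31.8 CPM. In total 1 of these genes were higher and 5 lower at an adjusted p up to 0.01, and without NT library 3 the number lower was 9. After the length and GC correction 4 were higher.

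A gene counted as differentially expressed (DEG) when its log2 fold change was 2 or more in either direction with an adjusted p no higher than 0.01. Higher DEGs made up 11.7% of the 16312 genes tested and lower DEGs 7.14%. At the adjusted p alone, 34.3% of the genes were higher and 33.6% were lower, so the change extended over most of the transcriptome and a gene group is read below against these shares. In 40.4% of all genes every sh#87 library lay above every NT library, and in 37.6% every sh#87 library lay below. Among the 3079 DEGs, 3076 (99.9%) had no overlap between the groups. Over all genes the log2 fold change had a median of 0.04, with quartiles at -0.83 and 1.03. MECOM itself lay well below the first quartile, among the 7.14% of genes that were lower DEGs. Of the 16312 genes tested, 928 had a larger fall at an adjusted p up to 0.01.

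The numbers of higher and lower DEGs differed by the level and the kind of gene. The genes were split by mean level into 5 equal sets. In the lowest set, up to 1.59 CPM, 963 DEGs were higher and 272 lower, with a median log2 fold change of 0.92 over the set. In the highest set, from 72.1 CPM, 75 DEGs were higher and 180 lower, with a median of -0.34. The median over all genes is therefore not a like background for a list of highly expressed genes. Of 11984 protein-coding genes 8.39% were higher DEGs and 7.01% lower DEGs, with a median log2 fold change of -0.11. Long noncoding RNAs (911 tested) had 130 higher and 87 lower DEGs, and pseudogenes (676 tested) 173 and 56. Of 67 small nucleolar RNAs 20 were higher DEGs and 2 lower ones. Small RNA genes together took 3.37%, 5.06% and 5.91% of the counts in NT libraries 1, 2 and 3, and between 5.95% and 7.25% in the sh#87 libraries. The part of these unequal NT libraries in the rise of small nucleolar RNAs was not tested. No NT library held more than 3 counts for 425 of the higher DEGs, and no sh#87 library did so for 126 of the lower DEGs. Such genes could pass the filter on low counts only through the libraries of other groups. The numbers of DEGs among genes of low level therefore depend on that filter. The number of DEGs was 2958 without NT library 1 and 3514 without NT library 3.

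**Figure D1:**
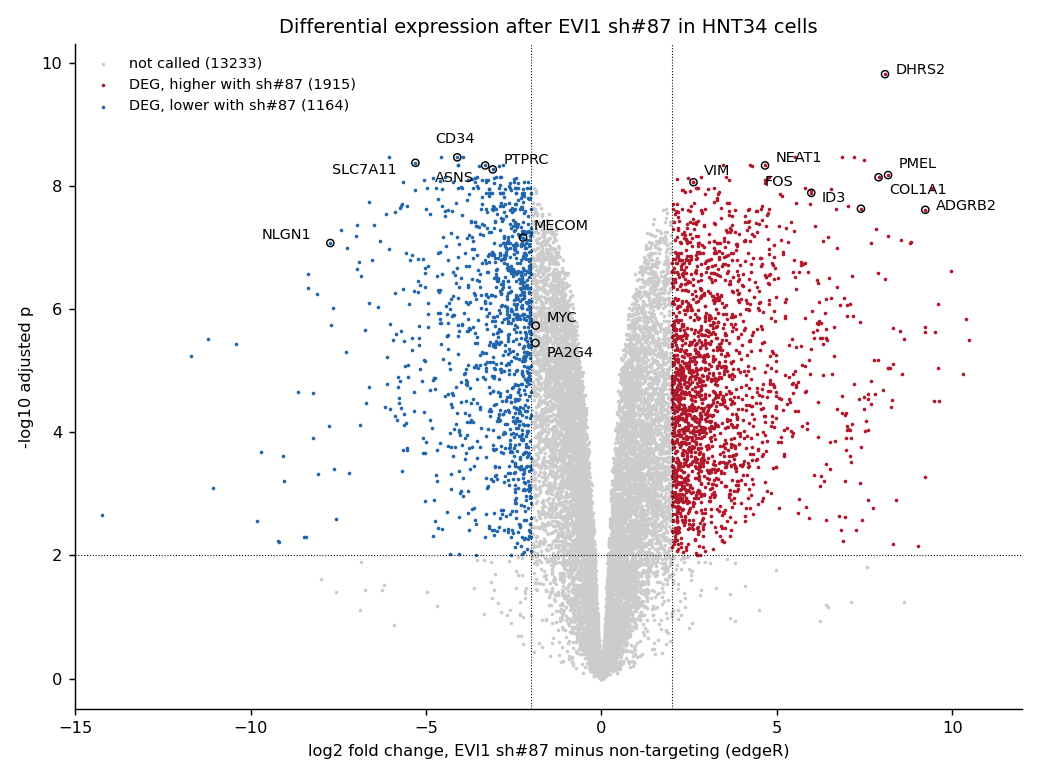
Each point is 1 of 16312 genes, with the log2 fold change of sh#87 against NT on the horizontal axis and -log10 of edgeR's adjusted p on the vertical axis. The 1915 higher DEGs are red, the 1164 lower DEGs are blue, and MECOM lies among the lower DEGs at a log2 fold change of -2.23, inside many genes with larger changes.

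Among DEGs with at least 5 CPM in the higher group, the 10 with the highest fold changes were at 1.46 CPM or less in every NT library. ADGRB2, an adhesion G protein-coupled receptor best known from the brain, held 1 count in all NT libraries together and 10.7, 11 and 10.7 CPM in the sh#87 libraries, a ratio of 824 with a 95% counting interval from 148 to 32600. AMIGO3, a transmembrane protein with leucine-rich repeats, had no count in NT and 5.28, 5.68 and 7.32 CPM with sh#87, at least 153-fold higher against 3 counts over the NT group. DNAAF1, an assembly factor of ciliary dynein arms, was likewise at 0 in NT and reached 7.36, 6.44 and 5.9 CPM, at least 168-fold higher. Intervals and bounds of this kind cover counting error only.

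TMPRSS9, a membrane serine protease, had 1 NT count and 7.57, 7.95 and 8.69 CPM with sh#87. TMEM59L had 2 NT counts and stood at 15.2, 14.7 and 11.5 CPM, a ratio of 532 (interval 147 to 4400). ITIH4, a secreted inhibitor heavy chain made mainly by liver, had 2 NT counts and reached 7.57, 9.83 and 9.2 CPM. These genes changed from near absence to a low level. FTCD, an enzyme of histidine breakdown that feeds the folate pool, rose from 1 NT count to 6.9, 6.35 and 6.66 CPM. The other genes of this set had counts in all NT libraries. PMEL, the fibril protein of melanosomes, rose from 0.086, 0.13 and 0.233 CPM to 45.6, 50.1 and 43.8 CPM (log2 fold change 8.17, SE 0.19, adjusted p = 6.68e-09). COL1A1, a chain of type I collagen, rose from 0.172, 0.0433 and 0.133 CPM to 29.5, 30.3 and 28.1 CPM (log2 fold change 7.90, SE 0.19, adjusted p = 7.26e-09). DHRS2, a short-chain dehydrogenase, rose from 1.46, 1.21 and 1.3 CPM to 349, 367 and 366 CPM (log2 fold change 8.08, SE 0.09, adjusted p = 1.54e-10).

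The 10 genes with the lowest fold changes, chosen in the same way, had at least 4 CPM in every NT library. PWAR5, a noncoding RNA of the Prader-Willi region, fell from 21, 15.1 and 12.5 CPM to no count, at least 350-fold lower. RGL4, a Ral exchange factor relative, fell from 11.7, 13.3 and 9.71 CPM to no count, at least 251-fold lower. CTSG, the neutrophil serine protease cathepsin G, fell from 4.77, 5.85 and 5.97 CPM to 1 count in all sh#87 libraries together, a ratio of 368 (interval 65.7 to 14600). GYPE, a glycophorin gene, fell from 6.45, 7.07 and 6 CPM to 1 count, and its reads can be shared with its near-identical relative GYPB. By the rule that chose them, the libraries of the groups did not overlap in any of these genes.

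NLGN1, a synaptic adhesion protein, fell from 24.1, 19 and 17.6 CPM to 0.125, 0.0894 and 0.0508 CPM (log2 fold change -7.73, SE 0.33, adjusted p = 8.49e-08). SLC8A3, a sodium-calcium exchanger, fell from 6.71, 7.15 and 5.77 CPM to 1 count in the sh#87 group. SERPINF1, a secreted serpin known as PEDF, fell from 21.9, 27 and 26.3 CPM to 0.249, 0.223 and 0.102 CPM (log2 fold change -6.96, SE 0.26, adjusted p = 4.31e-08). LSAMP, a neuronal adhesion molecule with immunoglobulin domains, fell from 5.74 to 7.98 CPM to 2 counts. LY86, the partner protein of the receptor CD180, fell from 5 to 6.19 CPM to 2 counts. PRSS2, a trypsinogen whose reads can be shared with PRSS1, fell from 5.5 to 6.59 CPM to 3 counts.

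**Figure D2:**
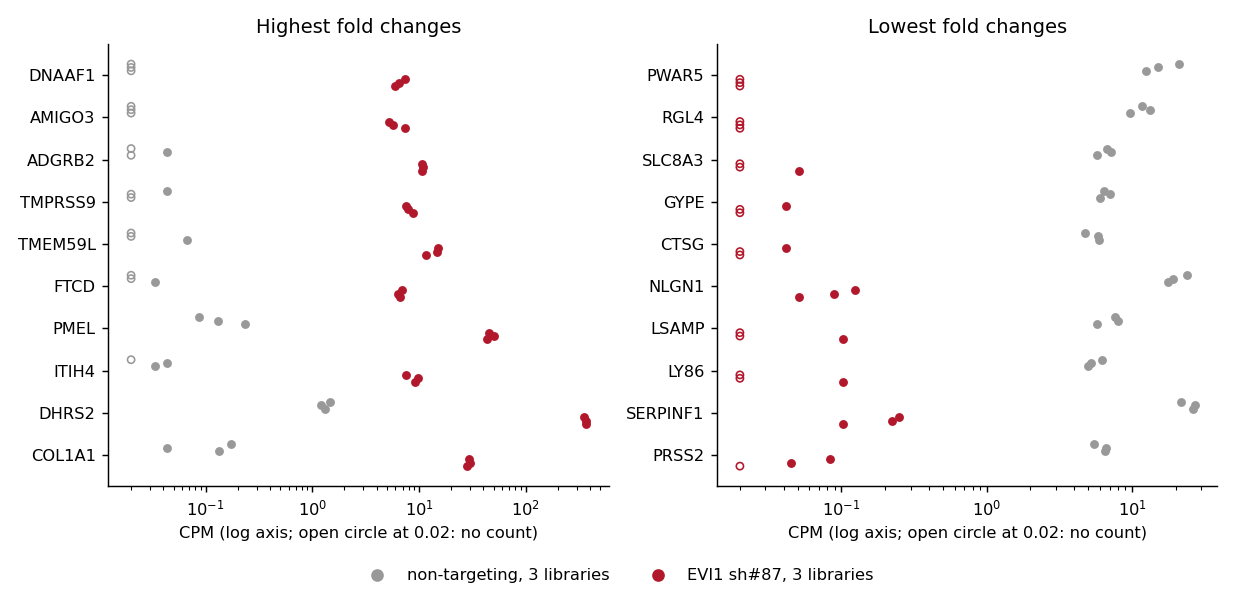
CPM of each library (log axis) for the 10 genes with the highest and the 10 with the lowest fold changes, with NT libraries in grey and sh#87 libraries in red. Open circles at the left edge are libraries with no count. The 3 red and 3 grey points of every gene lie apart because only genes without overlap were eligible.

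Among DEGs, the largest rises in the share of the library belonged to NEAT1, MALAT1, VIM, TXNIP and FLNA. NEAT1, the scaffold RNA of nuclear paraspeckles, rose from 644, 648 and 618 CPM to 15556, 16632 and 16266 CPM (log2 fold change 4.66, SE 0.10, adjusted p = 4.66e-09). MALAT1, a nuclear speckle RNA, rose from 9540.1, 7590.4 and 5615 CPM to 42503, 39886 and 40918 CPM (log2 fold change 2.44, SE 0.19, adjusted p = 2.61e-06). In both the sh#87 libraries were close together and far above NT. VIM, the intermediate filament vimentin, rose from 331, 338 and 326 CPM to 2046, 1989 and 2094 CPM (log2 fold change 2.62, SE 0.07, adjusted p = 8.74e-09). FLNA, the actin crosslinker filamin A, rose from 155, 236 and 339.9 CPM to 986, 1003 and 953 CPM, a log2 fold change of 2.01. TXNIP, an inhibitor of thioredoxin and of glucose uptake, rose from 249, 266 and 309 CPM to 1319, 1442 and 1427 CPM, a log2 fold change of 2.34. Among lower DEGs outside the mitochondrial genome the largest fall in CPM was that of FAM30A, a long noncoding RNA, which went from 1671, 1465 and 1241 CPM to 104, 109.9 and 105 CPM (log2 fold change -3.78, SE 0.11, adjusted p = 1.35e-08).

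The mitochondrially encoded genes followed the NT libraries unevenly. MT-ND4, a subunit of respiratory complex I, stood at 33709, 23125 and 6267 CPM in NT libraries 1, 2 and 3 and at 5189, 3545 and 4914 CPM with sh#87 (log2 fold change -2.21, SE 0.49, adjusted p = 0.00264). NT library 3 was above the sh#87 libraries by little and NT library 1 by far more. MT-ND5 showed the same order, with 23329, 14136 and 3551 CPM in NT and 3215, 2111 and 2929 CPM with sh#87. MT-ND6, the only protein encoded on the light strand, stood at 189.9, 169 and 113 CPM in NT and fell to 86, 80.7 and 85.3 CPM (log2 fold change -0.91, SE 0.17, adjusted p = 8.21e-04). Of 15 such genes 10 were lower and none higher at an adjusted p up to 0.01. That number was 8 without NT library 1, 4 without NT library 2 and 15 without NT library 3, and it was 1 when only the 6 libraries were fitted, so the fall of this group rests on the choice of libraries.

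Transcripts that host microRNAs were among the noncoding RNAs that changed. The mature microRNAs were not measured here, and those that the hosts carry are shown because their seeds, bases 2 to 8 in capitals, set which mRNAs they pair with (RefSeq, GRCh38.p14, 5′ to 3′).
hsa-miR-223-3p: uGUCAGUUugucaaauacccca
hsa-miR-17-5p: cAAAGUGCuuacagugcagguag
hsa-miR-20a-5p: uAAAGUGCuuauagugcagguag
hsa-miR-18a-5p: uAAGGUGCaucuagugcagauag
hsa-miR-19a-3p: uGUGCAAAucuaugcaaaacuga
hsa-miR-19b-3p: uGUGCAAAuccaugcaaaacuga
hsa-miR-92a-3p: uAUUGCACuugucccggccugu
hsa-miR-22-3p: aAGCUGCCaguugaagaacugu
The miR-223 sequence lies at chrX:66018937-66018958 on the plus strand, and its host transcript is MIR223HG. The 6 sequences from miR-17 to miR-92a lie in 1 cluster on chromosome 13, between 91350618 and 91351382 on the plus strand, and are hosted by MIR17HG. Within that cluster miR-17 shares its seed with miR-20a, and miR-19a shares its seed with miR-19b. The miR-22 sequence lies at chr17:1713914-1713935 on the minus strand.

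MIR223HG, the host of the myeloid microRNA miR-223, fell from 449, 433 and 357 CPM to 53.6, 55.3 and 62.1 CPM (log2 fold change -2.86, SE 0.10, adjusted p = 3.36e-08). MIR17HG, host of the proliferation-linked cluster shown above, fell from 28.2, 26.3 and 29 CPM to 4.62, 6.57 and 4.47 CPM (log2 fold change -2.41, SE 0.15, adjusted p = 6.45e-07). MIR22HG moved the other way, from 0.602, 0.997 and 1.23 CPM to 15.2, 13.9 and 14 CPM (log2 fold change 3.90, SE 0.22, adjusted p = 3.47e-07). All 3 hosts were DEGs, and their libraries did not overlap between the groups, as in 99.9% of all DEGs. MIR155HG, host of miR-155 and chosen after its values were seen, fell from 20.7 to 32.2 CPM to 7.61 to 8.67 CPM. Of 21 nuclear and host RNAs tested, 8 were higher and 10 lower at an adjusted p up to 0.01. Of 6 genes of the small RNA machinery 2 were lower and 1 higher, or 2 and 3 after the length and GC correction, with the precursor-cutting enzyme genes DICER1 falling from 177 to 233 CPM to 81.3 to 83.3 CPM and DROSHA from 166 to 250.1 CPM to 118 to 134 CPM.

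MYC is a transcription factor that drives ribosome production and cell growth, and it binds DNA as a pair with MAX. The MXD and MNT proteins compete for MAX and repress the same genes. MYC mRNA stood at 299, 366 and 444 CPM in NT libraries 1, 2 and 3 and at 111, 93.1 and 98.4 CPM in the sh#87 libraries (log2 fold change -1.87, SE 0.14, adjusted p = 1.86e-06). Every sh#87 library was below every NT library, as in 37.6% of all genes tested, and NT library 1 was the lowest of its group. MAX fell from 292, 277 and 200.3 CPM to 104, 104 and 105 CPM (log2 fold change -1.29, SE 0.12, adjusted p = 1.10e-05), and MYCN from 41.4 to 67.2 CPM to 25.2 to 26.7 CPM, a log2 fold change of -1.07. The MAX competitors MXD1, MXD3 and MXD4 rose. MXD4 went from 9.2, 14.2 and 13.6 CPM to 38.9, 38 and 34.4 CPM (log2 fold change 1.59, SE 0.15, adjusted p = 9.56e-06), and MXD1 from 35 to 48.7 CPM to 94.2 to 101 CPM. MXI1, of the same family, at 41.2 to 53.4 CPM in NT and 50.2 to 56.6 CPM with sh#87, did not pass the test. MNT, at 55.9 to 75.9 CPM in NT and 55 to 56.8 CPM with sh#87, also did not pass. Of 12 network genes tested, 5 were higher and 4 lower at an adjusted p up to 0.01. The DEG among them was MYCL, a relative of MYC, which rose from 1 count in the NT group to 0.559 to 0.956 CPM.

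Genes listed as MYC targets were mostly lower. Of 20 tested, 13 were lower and 1 was higher, with a median log2 fold change of -1.01 against 0.04 over all genes. NCL, which encodes the nucleolar protein nucleolin, fell from 2226, 1591 and 979 CPM to 278, 239 and 251 CPM (log2 fold change -2.64, SE 0.25, adjusted p = 1.12e-05). NPM1, the nucleolar chaperone nucleophosmin, fell from 1899, 1405 and 1001 CPM to 357, 314 and 326 CPM (log2 fold change -2.11, SE 0.20, adjusted p = 1.00e-05). In both genes NT library 3 was the lowest NT library and was still well above sh#87. ODC1, the first enzyme of polyamine synthesis and a classic MYC target, was the exception and rose from 161, 138 and 135 CPM to 267, 266 and 273 CPM (log2 fold change 0.89, SE 0.07, adjusted p = 3.98e-06).

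PA2G4 is a growth-regulated RNA-binding protein of the nucleolus that the study examined beside EVI1 and MYC. It fell from 530.2, 503 and 351 CPM to 136, 110.3 and 129 CPM (log2 fold change -1.88, SE 0.15, adjusted p = 3.55e-06). Of the 11 genes for PA2G4 and chromatin partners of EVI1 that the study plotted, 9 were lower and none higher at an adjusted p up to 0.01. The study chose this list, so its count is not independent evidence of a direction. The nucleolar protein RSL1D1 fell most, from 648, 554 and 416 CPM to 98.6, 84.3 and 89.4 CPM (log2 fold change -2.57, SE 0.15, adjusted p = 5.02e-07). DDX21, a nucleolar helicase, fell from 491 to 735 CPM to 209 to 216 CPM. PABPC1, which binds poly(A) tails, fell from 4416 to 7323 CPM to 1816 to 2067 CPM. The methyltransferase FBL did not pass the test, with 88.4 to 110.0 CPM in NT and 82.2 to 97.9 CPM with sh#87.

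Of 18 genes for EVI1 corepressors and chromatin partners 8 were lower, 1 was higher and 9 did not pass the test, and 3 were higher without NT library 3. DNMT3A, a DNA methyltransferase, fell from 219.5, 219 and 199 CPM to 42.2, 40.4 and 40.6 CPM (log2 fold change -2.37, SE 0.06, adjusted p = 1.07e-08). Its relative DNMT3B, at 368 to 405 CPM in NT and 393 to 403 CPM with sh#87, did not pass the test. KDM1A, the demethylase LSD1, fell from 159 to 166 CPM to 95 to 101 CPM (log2 fold change -0.73, SE 0.05, adjusted p = 1.60e-06). The histone deacetylases split, with HDAC2 falling from 176, 137 and 112 CPM to 36.3, 40.4 and 39.8 CPM and HDAC3 rising from 35.3, 38.8 and 46.1 CPM to 129, 144 and 147 CPM. The log2 fold changes were -1.87 and 1.80. Across all 16 histone deacetylase genes tested, 9 were higher and 4 lower at an adjusted p up to 0.01, and the sirtuin genes SIRT2 (2.39) and SIRT7 (2.41) had the highest log2 fold changes. Of 28 Polycomb and trithorax genes 11 were higher and 8 lower. KMT2A, the histone methyltransferase MLL1, rose from 314 to 388 CPM to 852 to 972 CPM and KDM6B, an H3K27 demethylase, fell from 104 to 128 CPM to 47.5 to 49.6 CPM.

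Genes of ribosome production fell as a group. Of 65 nucleolar ribosome biogenesis genes, 49 were lower and 3 higher, or 5 higher without NT library 3, with a median log2 fold change of -0.996, and of -0.68 after the length and GC correction. All 85 cytosolic ribosomal protein genes listed were tested, and 50 were lower and 3 higher, with a median of -0.67. RPS4X of the small subunit fell from 3916, 2899 and 1832 CPM to 870.5, 854 and 846 CPM (log2 fold change -1.75, SE 0.23, adjusted p = 8.05e-05). Without NT library 3 the number of ribosomal protein genes that were higher was 9, and after the length and GC correction it was 5. Mitochondrial ribosomal protein genes had 50 of 79 lower and 10 higher, or 6 higher without NT library 2. MRPL3 fell from 95 to 152 CPM to 20.6 to 24.1 CPM (log2 fold change -2.45, SE 0.16, adjusted p = 8.97e-07), and MRPL41 rose from 2.58 to 6.37 CPM to 12.9 to 15.3 CPM.

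Translation factors had 42 of 72 lower and 8 higher in a list that also holds pseudogenes, and 15 were higher after the length and GC correction. EIF2S2, a subunit of the factor that brings initiator tRNA to the ribosome, fell from 531, 425 and 288 CPM to 49.8, 42.4 and 45.4 CPM (log2 fold change -3.18, SE 0.20, adjusted p = 7.86e-07). EEF1A1, the main elongation factor, fell from 12767, 12229 and 13526 CPM to 5167, 4975 and 5079 CPM, a log2 fold change of -1.34. EIF4E3, a cap-binding protein of the EIF4E family, moved against its group from 2.54, 2.73 and 2.33 CPM to 46.7, 48.4 and 47.4 CPM (log2 fold change 4.23, SE 0.09, adjusted p = 4.66e-09). The cytosolic aminoacyl-tRNA synthetases, which load amino acids on tRNA, were lower in 17 of 22 genes and higher in 1. WARS1, for tryptophan, fell from 627, 641 and 647 CPM to 86.2, 79.8 and 88.6 CPM (log2 fold change -2.91, SE 0.06, adjusted p = 4.74e-09). NARS1, for asparagine, fell from 612, 502 and 385 CPM to 76.2, 74.6 and 71.7 CPM, a log2 fold change of -2.75. HARS1, for histidine, rose from 60.1 to 64.1 CPM to 104 to 107 CPM.

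ATF4 is the transcription factor of the amino acid response, and it induces enzymes and transporters that supply serine, asparagine and cystine. The group was lower in 18 of 23 genes, of which 12 were DEGs, and higher in 1. Its median log2 fold change was -2.12. ATF4 mRNA itself fell from 755, 761 and 645 CPM to 124, 117 and 127 CPM (log2 fold change -2.55, SE 0.08, adjusted p = 2.25e-08). ASNS, asparagine synthetase, fell from 232, 220.1 and 234 CPM to 21.6, 23.6 and 23.8 CPM (log2 fold change -3.31, SE 0.07, adjusted p = 4.66e-09). SLC7A11, the cystine transporter, fell from 111, 110.0 and 117 CPM to 2.91, 2.86 and 2.8 CPM (log2 fold change -5.30, SE 0.10, adjusted p = 4.23e-09). In each of these genes the libraries of 1 group lay within a narrow range and far from the other group. DDIT4, an inhibitor of mTORC1 signalling, was the gene that rose, from 81.3, 108 and 142 CPM to 213, 216 and 194 CPM (log2 fold change 0.91, SE 0.17, adjusted p = 8.41e-04). CHAC1, an ATF4-induced enzyme of glutathione breakdown that was chosen after its values were seen, fell from 10.4, 18.3 and 33.6 CPM to 3.04, 2.68 and 1.68 CPM (log2 fold change -3.06, SE 0.45, adjusted p = 1.91e-04).

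ATF4 and C/EBP proteins bind a composite element, and the upstream sequences of ASNS and CHAC1 are shown because both genes fell with ATF4 and hold the element within 250 bases of the start (RefSeq, GRCh38.p14, capitals mark TGATGNAA on either strand).
ASNS: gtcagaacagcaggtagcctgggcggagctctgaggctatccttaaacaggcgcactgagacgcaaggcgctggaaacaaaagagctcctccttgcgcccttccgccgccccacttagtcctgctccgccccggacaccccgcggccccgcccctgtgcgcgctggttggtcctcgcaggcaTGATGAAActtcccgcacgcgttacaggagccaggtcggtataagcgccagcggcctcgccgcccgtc
CHAC1: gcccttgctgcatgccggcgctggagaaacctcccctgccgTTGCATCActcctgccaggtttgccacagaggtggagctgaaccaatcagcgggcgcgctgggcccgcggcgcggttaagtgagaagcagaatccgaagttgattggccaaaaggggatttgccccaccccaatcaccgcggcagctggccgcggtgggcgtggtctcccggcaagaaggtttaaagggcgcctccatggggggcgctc
The ASNS sequence is chr7:97872409-97872658 on the minus strand, with the element 68 bases before the start. The CHAC1 sequence is chr15:40953221-40953470 on the plus strand, with the element 209 bases before the start.

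The letters TGATGNAA occurred in 5 of the 19 genes of the ATF4 group that had a promoter sequence (26.3%), in 3.89% of all 27305 genes with one and in 2.32% of the genes tested. Lower DEGs had them in 5.42% and higher DEGs in 2.51%. The E-box CACGTG, which MYC and MAX bind, occurred in 6 of 18 MYC target genes (33.3%) and 10 of 53 ribosome biogenesis genes (18.9%), against 11.0% of the genes tested. Lower DEGs as a whole had the E-box in 10.4% and higher DEGs in 8.14%. The GATA letters GATAAG occurred in 7.56% of lower and 6.23% of higher DEGs, against 5.12% of the genes tested. For the AP-1 letters TGANTCA the shares were 9.13%, 6.95% and 5.76%. A match is a description of the sequence and not a binding site, both strands were searched, and several promoters of a gene were counted as 1 gene.

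Enzymes of nucleotide synthesis and folate use were lower in 21 of 28 genes and higher in 3. MTHFD1L, a mitochondrial folate enzyme, fell from 52.8, 53.4 and 52.9 CPM to 7.61, 9.56 and 8.9 CPM (log2 fold change -2.61, SE 0.10, adjusted p = 4.15e-08). PAICS, of purine synthesis, fell from 829, 748 and 643 CPM to 284, 279 and 312 CPM, a log2 fold change of -1.34. The genes named here that rose supply DNA precursors. TK1, thymidine kinase, rose from 31.2, 33.6 and 46.3 CPM to 198, 190.3 and 188 CPM (log2 fold change 2.37, SE 0.13, adjusted p = 3.94e-07), and RRM2, the regulatory subunit of ribonucleotide reductase, rose from 120.0 to 157 CPM to 378 to 393 CPM.

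Chaperone genes were lower in 24 of 34 and higher in 5, or 8 after the length and GC correction. HSPA9, the mitochondrial HSP70, fell from 1387, 1189.5 and 930.1 CPM to 196, 174 and 189 CPM (log2 fold change -2.65, SE 0.14, adjusted p = 2.32e-07), and HSPA8, the constitutive cytosolic HSP70, from 1446 to 2857 CPM to 596 to 650.3 CPM. The stress-induced HSP70 genes moved the other way. HSPA1B rose from 14.8, 26.6 and 43.6 CPM to 361, 298 and 297 CPM and HSPA1A from 57.8, 46.9 and 35 CPM to 268, 234 and 249 CPM, although these near-identical copies can exchange reads. Of 22 genes of endoplasmic reticulum stress 15 were lower and 4 higher. DDIT3, the stress factor CHOP, fell from 34.1, 36 and 30.4 CPM to 5.78, 7.82 and 7.68 CPM (log2 fold change -2.24, SE 0.13, adjusted p = 5.79e-07), and CRELD2, a chaperone of this pathway, rose from 5.63 to 8.21 CPM to 16.4 to 19 CPM.

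The stem cell and progenitor surface genes were mostly lower. Of 18 tested, 14 were lower and 2 higher, or 4 higher without NT library 3, with a median log2 fold change of -1.61. CD34, the antigen by which haematopoietic progenitors are sorted, fell from 757, 769 and 667 CPM to 42.5, 41.2 and 43.5 CPM (log2 fold change -4.11, SE 0.08, adjusted p = 3.44e-09). CD244, a receptor of the SLAM family, fell from 88.6, 100.1 and 112 CPM to 2.66, 2.99 and 3.36 CPM (log2 fold change -5.07, SE 0.13, adjusted p = 8.09e-09). All of the sh#87 libraries lay below all NT libraries in these genes, as in 37.6% of all genes tested. PROCR, the receptor of protein C, rose from 5.85 to 7.24 CPM to 14.6 to 15.5 CPM, and CLEC12A, a myeloid lectin, from 0.477 to 0.774 CPM to 1.21 to 2.14 CPM.

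Of 23 transcription factor genes known from stem cells and leukaemia, 13 were lower and 6 higher. MSI2, an RNA-binding protein that maintains progenitors, fell from 269, 259 and 244 CPM to 34.6, 34.1 and 37.5 CPM (log2 fold change -2.86, SE 0.07, adjusted p = 7.09e-09). ZFX, a zinc finger factor of stem cell renewal, fell from 149.6, 131 and 119.5 CPM to 17.7, 15.6 and 15.8 CPM (log2 fold change -3.03, SE 0.11, adjusted p = 3.86e-08). ID3, an inhibitor of basic helix-loop-helix factors, rose from 0.344, 0.347 and 0.901 CPM to 96, 96.9 and 90.7 CPM (log2 fold change 7.40, SE 0.25, adjusted p = 2.35e-08). Among 18 myeloid transcription factors 11 were lower and 2 higher, or 4 higher without NT library 3. FLI1, an ETS factor of megakaryocytes and stem cells, fell from 200.4, 196 and 159 CPM to 7.9, 6.97 and 8.13 CPM (log2 fold change -4.59, SE 0.12, adjusted p = 8.34e-09). RUNX1, a master regulator of blood formation, fell from 241, 234 and 197 CPM to 131, 132 and 139 CPM, a log2 fold change of -0.74.

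Lineage genes were lower in most lists. Of 12 erythroid genes tested 9 were lower, and of 12 megakaryocyte and platelet genes 8, in lists of 33 and 26 genes whose other members were not in the table. HEMGN, a nuclear protein of erythroid precursors, fell from 36.9, 31.8 and 19.4 CPM to 0.707, 0.313 and 0.712 CPM (log2 fold change -5.66, SE 0.33, adjusted p = 4.69e-07). TAL1, a helix-loop-helix factor of stem and erythroid cells, fell from 88.7 to 117 CPM to 33.6 to 37.9 CPM. EPOR, the erythropoietin receptor, rose from 1.46, 2.43 and 2.87 CPM to 12.4, 10.1 and 9.76 CPM (log2 fold change 2.25, SE 0.22, adjusted p = 1.41e-05). In the megakaryocyte list GP6, the collagen receptor of platelets, fell from 14.1, 15.9 and 16.3 CPM to 0.208, 0.313 and 0.559 CPM (log2 fold change -5.44, SE 0.26, adjusted p = 1.61e-07). THBS1, the matrix protein thrombospondin 1, rose from 189, 198 and 210.0 CPM to 429, 458 and 437 CPM (log2 fold change 1.15, SE 0.06, adjusted p = 2.78e-07).

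Maturation genes of granulocytes and monocytes did not rise together. Of 11 neutrophil maturation genes tested 8 were lower and 2 higher, of 14 monocyte and macrophage genes 7 and 4, and of 8 granule genes 4 and 2. These lists held 20, 28 and 24 genes, and the members not in the table could not be judged. PADI4, which converts arginine to citrulline in neutrophil chromatin, fell from 22, 32.4 and 39.5 CPM to 1.04, 0.849 and 1.17 CPM (log2 fold change -4.94, SE 0.25, adjusted p = 1.97e-07). MME, the peptidase CD10, fell from 320.5, 280.3 and 274 CPM to 58.4, 62.4 and 61.6 CPM (log2 fold change -2.26, SE 0.07, adjusted p = 2.35e-08). ITGAM, the CD11b chain, rose from 31.2, 34.7 and 37.7 CPM to 56.3, 60.7 and 60.2 CPM, a log2 fold change of 0.78. FCGR2A, an Fc receptor, rose from 11.1, 12 and 7.71 CPM to 40.0, 37 and 40.0 CPM (log2 fold change 1.93, SE 0.15, adjusted p = 2.34e-06). KIT, the stem cell factor receptor, fell from 84.8 to 87.8 CPM to 26.7 to 28.3 CPM in the mast cell list, in which 5 of 8 genes were lower. In the lymphoid list CD79A, a chain of the B cell receptor, fell from 13.7, 25.1 and 40.2 CPM to 1.21, 1.7 and 1.02 CPM (log2 fold change -4.32, SE 0.40, adjusted p = 9.26e-06).

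Of 37 interferon-stimulated genes tested 26 were lower and 5 higher, with a median log2 fold change of -1.74. OAS2, an antiviral 2′-5′ oligoadenylate synthetase, fell from 24.3, 23.7 and 23.5 CPM to 1.04, 1.07 and 1.58 CPM (log2 fold change -4.29, SE 0.17, adjusted p = 5.81e-08). EIF2AK2, the kinase PKR, fell from 215 to 337 CPM to 60.1, 54.4 and 60.0 CPM (log2 fold change -2.28, SE 0.15, adjusted p = 8.65e-07). ISG15, a ubiquitin-like modifier, rose from 0.645, 1.39 and 2.74 CPM to 7.44, 9.61 and 8.54 CPM (log2 fold change 2.39, SE 0.38, adjusted p = 3.34e-04). Of 19 genes of MHC class I presentation 12 were lower and 1 was higher, or 4 were higher without NT library 3. ERAP1, which trims peptides for class I, fell from 232, 209 and 207 CPM to 25.6, 24.2 and 27.3 CPM (log2 fold change -3.07, SE 0.07, adjusted p = 7.47e-09), and PSMB10, a subunit of the immunoproteasome, from 8.39, 12.1 and 12.7 CPM to 0.79, 0.447 and 0.508 CPM. In class II, 5 of 12 genes were lower, 1 was higher and 6 did not pass the test. Among the lower ones was HLA-DRA, which fell from 103 to 124 CPM to 33.2 to 36.5 CPM.

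The NF-kB group was divided, with 11 of 22 genes higher and 7 lower. NFKB1, the p105 subunit, fell from 93.6, 95.6 and 86.1 CPM to 20.5, 19.7 and 17.8 CPM (log2 fold change -2.25, SE 0.08, adjusted p = 3.81e-08). IER3, an early response gene, rose from 7.18, 7.67 and 8.31 CPM to 66.2, 60.9 and 63.5 CPM (log2 fold change 3.04, SE 0.09, adjusted p = 1.11e-08), and TRAF1, an adaptor that NF-kB induces, from 0.688 to 1.08 CPM to 8.64 to 10.4 CPM. Of 19 cytokine and receptor genes 6 were higher and 8 lower. IL16 fell from 178, 178 and 169 CPM to 33.2, 30.2 and 30.4 CPM (log2 fold change -2.49, SE 0.06, adjusted p = 8.74e-09), and IL15 rose from 0.129 to 0.233 CPM to 2.39 to 3.31 CPM. Leukocyte adhesion genes had 10 of 22 lower and 7 higher. SELPLG, the P-selectin ligand, fell from 90.6, 104 and 102 CPM to 10.2, 10.8 and 10.2 CPM (log2 fold change -3.24, SE 0.08, adjusted p = 8.09e-09). FERMT3, the kindlin that activates leukocyte integrins, fell from 80.2 to 165 CPM to 9.71 to 11.5 CPM.

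Early response genes of the ERK pathway did not move in 1 direction. Of 28 tested 11 were higher and 11 lower, or 7 lower with upper-quartile normalization. FOS, a subunit of AP-1, rose from 0.344, 0.26 and 0.5 CPM to 24.6, 25.6 and 22.3 CPM (log2 fold change 5.98, SE 0.18, adjusted p = 1.30e-08), and its relative FOSL1 fell from 23.9, 20.3 and 14.7 CPM to 1.79, 1.88 and 2.29 CPM (log2 fold change -3.31, SE 0.21, adjusted p = 7.89e-07). Among the ERK phosphatases DUSP5 rose from 6.92, 8.06 and 11.6 CPM to 83.3, 94.9 and 91.5 CPM (log2 fold change 3.33, SE 0.17, adjusted p = 2.20e-07) and DUSP6 fell from 1079.8, 1031 and 804 CPM to 413, 375 and 391 CPM (log2 fold change -1.31, SE 0.11, adjusted p = 4.40e-06). The kinase and STAT5 list was lower in 14 of 26 genes and higher in 4, or 8 without NT library 3 and 2 without NT library 2. STAT5A, a factor downstream of cytokine receptors, fell from 308, 366 and 388 CPM to 38.3, 39.1 and 38.3 CPM (log2 fold change -3.20, SE 0.09, adjusted p = 1.11e-08). LYN, a SRC family kinase, fell from 1098, 982 and 842 CPM to 219, 206 and 216 CPM (log2 fold change -2.19, SE 0.10, adjusted p = 1.02e-07). TYK2, a Janus kinase, rose from 54 to 110.2 CPM to 193 to 209 CPM.

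The PI3K list was nearly balanced, with 11 of 29 genes higher and 12 lower. PIK3CG, the catalytic subunit of leukocytes, fell from 180.5, 172 and 178 CPM to 30.9, 33.4 and 32.9 CPM (log2 fold change -2.45, SE 0.07, adjusted p = 1.08e-08). TSC2, an inhibitor of mTORC1, rose from 49.5, 60.2 and 64.2 CPM to 179, 178 and 179 CPM (log2 fold change 1.62, SE 0.09, adjusted p = 3.60e-07), and SESN3, a stress-induced inhibitor of the same pathway, rose from 43.5 to 51.5 CPM to 152 to 165 CPM. EVI1 binds SMAD3, and of 26 TGF-beta and SMAD genes 8 were higher and 7 lower, or 13 and 7 after the length and GC correction. SMAD1 fell from 26.9, 22.1 and 20.1 CPM to 5.24, 5.72 and 5.49 CPM (log2 fold change -2.07, SE 0.12, adjusted p = 5.48e-07). SMAD7, a feedback inhibitor, rose from 9.37, 10.4 and 12 CPM to 28.8, 30.4 and 28.8 CPM (log2 fold change 1.47, SE 0.10, adjusted p = 1.04e-06).

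Of 41 DNA replication genes 19 were higher and 14 lower, or 21 and 8 after the length and GC correction, with no DEG in either direction. Of 44 genes of mitosis and the spindle 19 were lower and 8 higher, and 14 and 18 after the length and GC correction, so the direction of that list depends on this step. HMMR, a spindle protein, fell from 130.1, 106 and 86 CPM to 22.5, 21 and 17.8 CPM (log2 fold change -2.39, SE 0.15, adjusted p = 8.43e-07). The proliferation marker MKI67 did not pass the test, with 879, 697 and 416 CPM in NT and 457, 382 and 419.9 CPM with sh#87, but did so without NT library 3, at a log2 fold change of -0.93. Of 23 genes for G1 cyclins, their kinases and inhibitors 11 were higher and 8 lower, or 13 and 5 after the length and GC correction. CCND2, cyclin D2, fell from 1130.2, 1181 and 1162 CPM to 291, 315 and 319 CPM (log2 fold change -1.91, SE 0.07, adjusted p = 2.81e-08), and its partner kinase gene CDK6 from 1014, 930.0 and 885 CPM to 247, 271 and 276 CPM (log2 fold change -1.83, SE 0.08, adjusted p = 8.34e-08). CDKN1A, the inhibitor p21, rose from 24.9, 38.1 and 64.2 CPM in NT libraries 1, 2 and 3 to 225, 231 and 215 CPM (log2 fold change 2.39, SE 0.28, adjusted p = 4.00e-05).

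CDKN1A is also a p53 target, but the p53 list as a whole had 6 of 20 genes higher and 5 lower. MDM2, the ligase that degrades p53, fell from 418, 387 and 369 CPM to 105, 105 and 104 CPM (log2 fold change -1.90, SE 0.06, adjusted p = 2.35e-08), and the death receptor gene FAS from 20.3 to 23.7 CPM to 2.75 to 3.37 CPM. In the BCL2 family 7 of 18 genes were higher and 7 lower. The survival genes BCL2 and BCL2L1 fell, the first from 276, 251 and 233 CPM to 75.1, 79.9 and 80.3 CPM (log2 fold change -1.69, SE 0.07, adjusted p = 9.50e-08). BCL2L1 went from 112, 139 and 145 CPM to 28.4, 30.0 and 23.4 CPM, a log2 fold change of -2.27. MCL1, another survival gene, rose from 170.0, 179 and 191 CPM to 362, 345 and 343 CPM (log2 fold change 0.96, SE 0.06, adjusted p = 9.48e-07).

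Clustered histone genes, which end without a poly(A) tail in cycling cells and share near-identical sequences, had 19 of 60 higher and 15 lower. H4C4 rose from 1.63, 1.86 and 2.57 CPM to 62, 51.3 and 51.4 CPM (log2 fold change 4.74, SE 0.16, adjusted p = 2.81e-08) and H4C15 from 7.53, 7.76 and 10.4 CPM to 105, 118 and 118 CPM. H2BC14 fell from 177, 152 and 89 CPM to 19.9, 12 and 11.6 CPM (log2 fold change -3.26, SE 0.29, adjusted p = 7.21e-06). Splicing regulators were lower in 39 of 49 genes of a list that also holds pseudogenes and higher in 2, or 5 after the length and GC correction, with a median log2 fold change of -1.13. HNRNPA1 fell from 3501, 2927 and 2229 CPM to 1486, 1338 and 1320.1 CPM (log2 fold change -1.06, SE 0.15, adjusted p = 1.50e-04). HNRNPLL, which regulates splicing in lymphocytes, rose from 36.6 to 40.0 CPM to 57.8 to 65 CPM.

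Lysosome genes were mostly higher, with 21 of 35 higher and 8 lower, or 5 lower without NT library 2, and a median log2 fold change of 0.61. NEU1, a sialidase, rose from 17.6, 19.8 and 23.2 CPM to 133, 139 and 138 CPM (log2 fold change 2.76, SE 0.10, adjusted p = 3.70e-08). PSAP, the precursor of the saposins, rose from 139, 163 and 213 CPM to 431, 454 and 424 CPM (log2 fold change 1.35, SE 0.14, adjusted p = 1.59e-05). CTSS, the protease cathepsin S of antigen-presenting cells, fell from 41.4, 40.3 and 46.4 CPM to 3.62, 4.56 and 3.71 CPM (log2 fold change -3.43, SE 0.11, adjusted p = 2.42e-08). Of 23 autophagy genes 11 were higher and 3 lower, and 19 and 2 after the length and GC correction. GABARAPL1, which coats autophagosomes, rose from 5.29 to 6.33 CPM to 20.1 to 22.9 CPM, and TAX1BP1, a cargo receptor, fell from 122 to 268 CPM to 59.3 to 64.7 CPM. The letters CACGTG, which lysosomal regulators of the TFEB family also bind, were present upstream of 8 of the 22 lysosome genes with a promoter sequence (36.4%).

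Cholesterol synthesis genes had 10 of 23 higher and 4 lower. INSIG1, which holds the SREBP factors in the endoplasmic reticulum, rose from 28.7, 28.4 and 35.3 CPM to 170.3, 168 and 162 CPM (log2 fold change 2.44, SE 0.09, adjusted p = 4.17e-08), and LSS, lanosterol synthase, from 6.32 to 11.5 CPM to 42.5 to 43.2 CPM. Of 11 fatty acid synthesis genes 5 were lower and 1 was higher. FADS2, a desaturase, fell from 119, 145 and 187 CPM to 30.0, 28.1 and 25.7 CPM (log2 fold change -2.43, SE 0.15, adjusted p = 6.96e-07). In glycolysis 5 of 22 genes were higher and 6 lower, and 12 were higher without NT library 3 and 8 after the length and GC correction. LDHA, lactate dehydrogenase, fell from 726, 619 and 537 CPM to 180.0, 178 and 186 CPM (log2 fold change -1.79, SE 0.10, adjusted p = 4.34e-07), and PKM, pyruvate kinase, rose from 1209, 1215 and 1009 CPM to 1981, 1968 and 2074 CPM (log2 fold change 0.81, SE 0.09, adjusted p = 3.04e-05). HIF1A, the hypoxia factor, fell from 219 to 348 CPM to 159.8 to 175 CPM, a call lost after the length and GC correction. Its relative EPAS1 rose from 1.12 to 1.4 CPM to 7.4 to 8.85 CPM. The hypoxia list had 9 of 16 genes lower, and 3 after the length and GC correction.

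Nuclear-encoded respiratory chain genes had 30 of 82 lower and 17 higher, a share of lower genes near that of all genes. Without NT library 2 there were 22 lower and 9 higher, and with upper-quartile normalization 20 and 19. ATP5MF, a subunit of ATP synthase, fell from 94.7, 95 and 69.3 CPM to 19.4, 17.3 and 18.2 CPM (log2 fold change -2.24, SE 0.13, adjusted p = 4.30e-07). NDUFS7, of complex I, rose from 8.51 to 21.1 CPM to 37.5 to 38.3 CPM. Proteasome subunit genes had 15 of 37 lower and 8 higher, and 9 and 11 after the length and GC correction. PSMD2, of the regulatory particle, rose from 80.3 to 105 CPM to 215 to 243 CPM. In the creatine pathway GATM, which makes its precursor, rose from 0.26 to 0.434 CPM to 4.58 to 5.07 CPM, and the transporter gene SLC6A8 from 1.81 to 3 CPM to 7.03 to 7.64 CPM, 2 of the 3 genes among 4 tested that were higher.

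The lists of genes of other tissues differed in direction. Of 17 synapse and neuronal adhesion genes tested 7 were higher and 4 lower, and 8 were lower after the length and GC correction and 7 without NT library 1. NRXN2, a presynaptic neurexin, rose from 0.817, 0.824 and 1.13 CPM to 9.4, 8.85 and 8.29 CPM (log2 fold change 3.24, SE 0.15, adjusted p = 1.13e-07). Of 8 epithelial, fibroblast and endothelial genes tested 7 were lower and 1 was higher, with a median log2 fold change of -3.13. PDGFRB, a receptor of mesenchymal cells, fell from 5.76, 9.49 and 13.7 CPM to 0.208, 0.223 and 0.102 CPM (log2 fold change -5.70, SE 0.43, adjusted p = 2.26e-06). VWF, a clotting factor of endothelium and megakaryocytes, fell from 172, 223 and 315 CPM to 21.3, 20.6 and 22.9 CPM (log2 fold change -3.45, SE 0.20, adjusted p = 4.46e-07). In the pigment list, beside PMEL, GPNMB rose from 0 to 0.0867 CPM to 0.707 to 0.76 CPM among 5 genes tested.

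**Figure D3:**
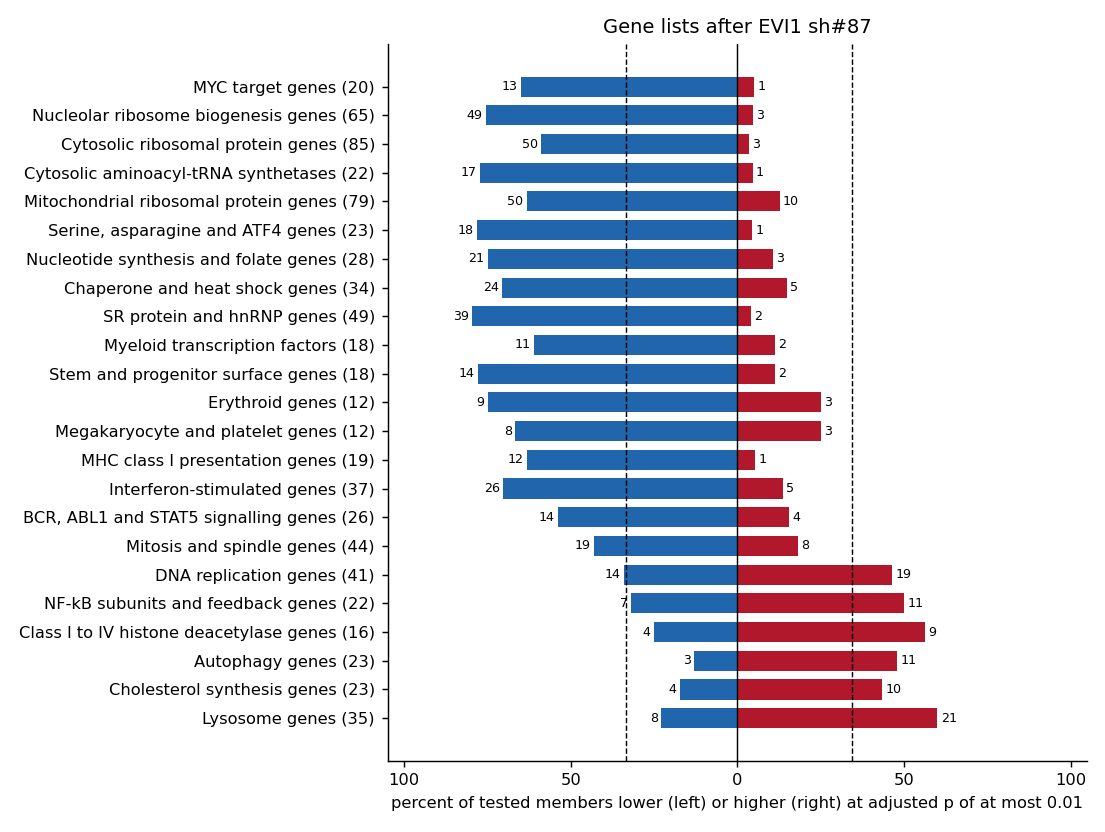
Share of the tested members of 23 gene lists that were lower (blue, to the left) or higher (red, to the right) at an adjusted p up to 0.01, with the number of members tested in brackets and of genes called at each bar. The dashed lines mark the shares of all 16312 genes, 33.6% lower and 34.3% higher. Ribosome, ATF4, stem cell surface and interferon lists are among those that reach beyond the left line. Lysosome, histone deacetylase, NF-kB, autophagy, cholesterol and DNA replication lists reach beyond the right one. The lower share of the DNA replication list, 34.15%, is close to that of all genes.

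Both EVI1-directed shRNAs were compared directly within the same edgeR fit, since they share the NT libraries and separate comparisons with NT are not independent. MECOM was lower with sh#87, at 106 to 109 CPM, than with sh#16, at 143 to 145 CPM (log2 difference -0.43, standard error 0.09, adjusted p = 0.00661). By the DEG thresholds 0.454% of the genes differed between the shRNAs, 47 higher and 27 lower with sh#87. At the adjusted p alone 8.29% were higher and 9.42% lower with sh#87, from a median log2 difference of -0.02. The GC trend was small here, with a median log2 difference of 0.04 in the highest and -0.14 in the lowest set by GC content. Of the genes described above, MYC was lower with sh#87 than with sh#16, at 256 to 267 CPM (log2 difference -1.36, adjusted p = 2.35e-04). CD34 was lower too, by a log2 difference of -1.46 (adjusted p = 1.38e-05) from 114 to 118 CPM. NEAT1 and MALAT1 were higher with sh#87, with a log2 difference of 1.44 for NEAT1 (adjusted p = 4.28e-05) and an adjusted p of 0.00335 for MALAT1, at 20412 to 20815 CPM with sh#16. For ADGRB2, at 11.3 to 12.3 CPM with sh#16, the difference of -0.14 did not pass the test.

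The genes with the largest differences between the shRNAs had several patterns. NR4A2, an orphan nuclear receptor, stood at 8.21, 7.28 and 5.4 CPM in NT, 11.8, 10.5 and 11.2 CPM with sh#16 and 81.6, 79.7 and 94.5 CPM with sh#87 (log2 difference between the shRNAs 2.94, standard error 0.15, adjusted p = 1.68e-05). It was high in the sh#87 libraries and closer to NT in the sh#16 libraries. MB, which encodes myoglobin, stood at 17.2, 17.3 and 14.9 CPM in NT, 16.4, 15.5 and 15.8 CPM with sh#16 and 2.25, 2.99 and 3.1 CPM with sh#87 (-2.52, standard error 0.13, adjusted p = 1.82e-05). It was low in the sh#87 libraries and near the NT level in the sh#16 libraries. RASD2, a RAS-related GTPase, stood at 2.11, 1.95 and 2.23 CPM in NT, 46.1, 48 and 45.4 CPM with sh#16 and 11.8, 10.5 and 11.7 CPM with sh#87 (-2.04, standard error 0.08, adjusted p = 7.17e-06), so it was highest with sh#16. RNY3, a small cytoplasmic RNA, was at 3.45, 7.98 and 4.16 CPM with sh#16 and at 0.333, 0.581 and 0 CPM with sh#87, within the range of the NT libraries at 0.989, 0 and 0.7 CPM.

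RNF213-AS1, an antisense transcript, rose from 0.13 to 0.473 CPM in NT to 1.99 to 2.14 CPM with sh#16 and 8.76 to 9.81 CPM with sh#87, in the same order as DNAAF1, at 0.994 to 1.64 CPM with sh#16, and FTCD, at 0.883 to 0.973 CPM. The transcript RP1-86C11.7 stood at 0.0941 ± 0.0318 CPM (SD, n = 3) in NT and 6.78 ± 1.57 CPM (SD, n = 3) with sh#87. PWAR5 and H2BC14 were lower with sh#87 than with sh#16, in which they stood at 4.74 to 9.31 CPM and 75.2 to 89.2 CPM. DHRS2 was higher with sh#87 than with sh#16, at 81.7 to 83.9 CPM (log2 difference 2.13, adjusted p = 1.05e-06). In the interferon list 15 of 37 genes were lower and 1 higher with sh#87 than with sh#16, and in the ATF4 list 5 of 23 were lower and 3 higher.

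**Figure D4:**
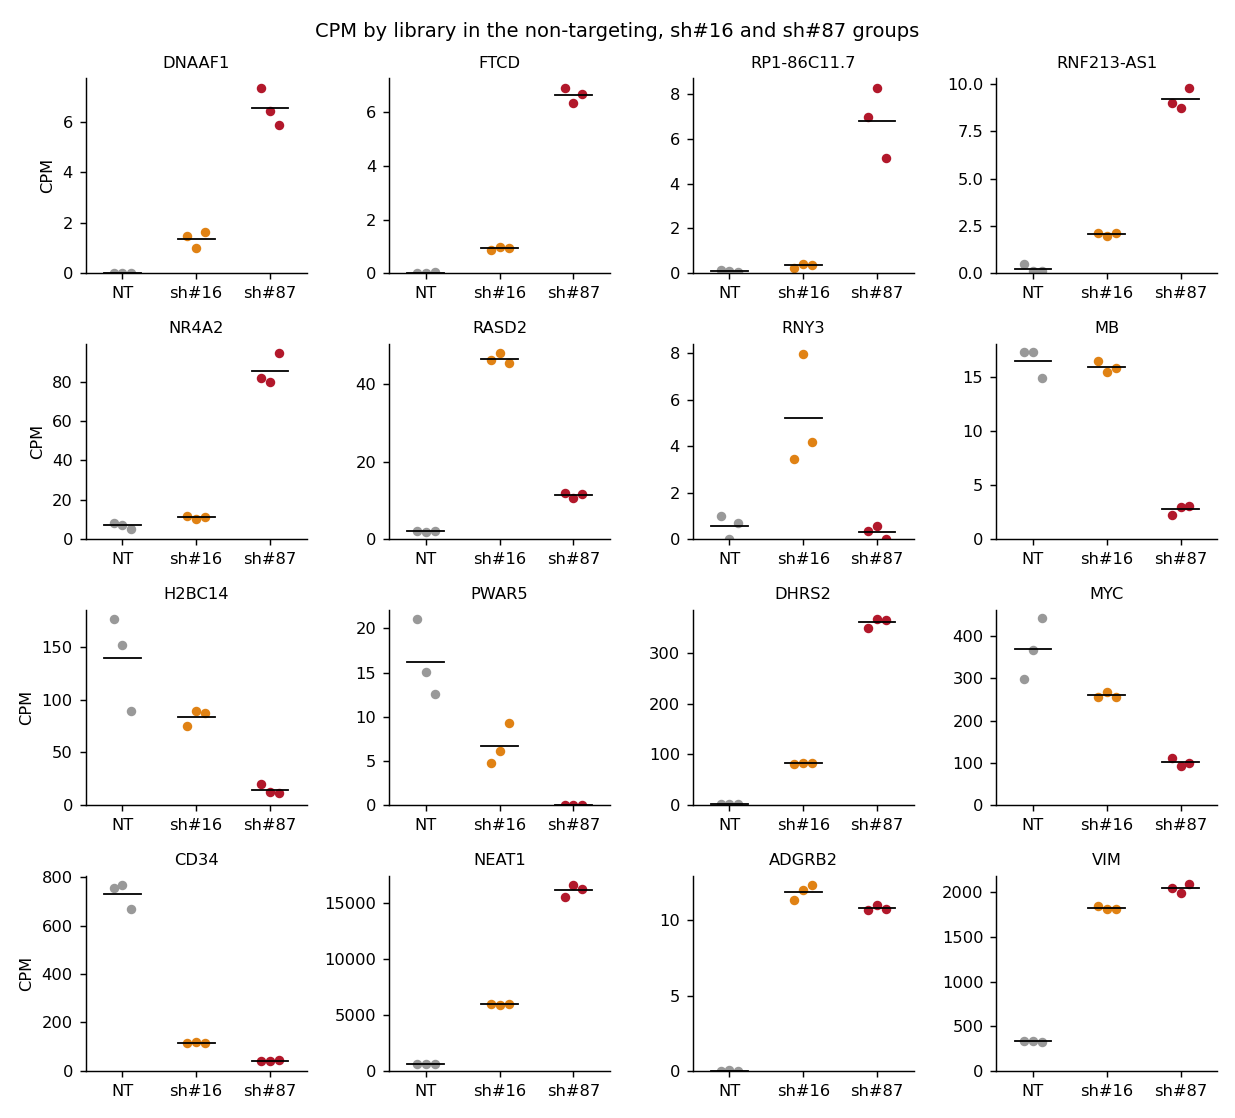
CPM of every library in the NT, sh#16 and sh#87 groups for 16 genes, with a line at each group mean and axes that start at 0. DNAAF1, FTCD and DHRS2 step up from NT over sh#16 to sh#87, NR4A2 and MB differ from NT mainly with sh#87, RASD2 and RNY3 are highest with sh#16, and ADGRB2 and VIM lie far above NT with both shRNAs.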

How the data were processed

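RNA of HNT34 cells was sequenced in 3 libraries each of NT, EVI1 sh#16 and EVI1 sh#87 cells. The authors deposited estimated counts per gene for all 9 libraries in 1 table, without normalization. Its header names salmon output and stands 1 column left of the values, while the methods describe gene counting by STAR. The submitters' processing notes name FastQC 1.3, STAR and GRCh38. All values were whole numbers, and every gene had at least 34 counts over the libraries. Groups came from the titles.

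The counts were normalized (TMM), filtered (filterByExpr) and tested in R 4.3.3 with edgeR 4.0.16 (quasi-likelihood test, Benjamini-Hochberg adjustment over all genes tested, 1 fit of 3 groups). DESeq2 1.42.0, which the study names, limma-voom (limma 3.58.1), other scalings and filters, a replicate block and leaving out each library were alternatives. The removal of 157 small RNA genes and a loess correction for length and GC content (span 0.5, degree 1, found for 84.4% of genes) were added after seeing the data. The genes named were the targeted and study genes, the 10 highest and 10 lowest fold changes, the 5 largest rises and falls in CPM, the leading members of each list and the 5 largest differences between the shRNAs in each direction. The 10 highest and 10 lowest were taken only from DEGs whose sh#87 and NT libraries did not overlap. The comparison, the lists and the named genes were chosen with earlier results of these data known. In simulated counts for the sh#87 comparison (16312 genes), 99 of 100 genes with a log2 change of 3 were recovered as DEGs and 68 of 100 with a log2 change of 1 passed the adjusted p, with 1 false call. The simulation gave all groups the same spread per gene, changed only these genes and held no GC trend. It therefore checks the code and cannot give the error rate in the real, unequal libraries. Replicate numbers did not pair the libraries. Sequences came from RefSeq tables (GRCh38.p14), and those of the shRNAs are not shown. Some genes picked by these rules are not reported here. Python 3.11.15, scipy 1.17.1 and matplotlib 3.10.9 were used for exact tests and figures.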

Additional observations from a re-analysis of the deposited data

Results flagged for a closer look

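Several genes named in the report differed between the EVI1-directed shRNAs by a direct edgeR test of that difference at the DEG thresholds. Against sh#16, the log2 difference with sh#87 was 2.13 for DHRS2, 2.29 for DNAAF1, 2.82 for FTCD, 2.94 for NR4A2, 2.14 for RNF213-AS1 and 4.21 for RP1-86C11.7, all higher with sh#87. It was -2.53 for H2BC14, -2.10 for HEMGN, -2.52 for MB, -2.33 for PRSS2, -2.04 for RASD2 and -4.05 for RNY3, all lower with sh#87. For PWAR5, at 0 counts in every sh#87 library, the fitted difference of -10.42 depends on the prior count and is no bound. PRSS2 held 3 counts in the sh#87 group, and RNY3 stood at 0 to 0.581 CPM with sh#87, so these differences rest on few reads. Each comparison was of 3 libraries against 3, and groups of this size were not searched for outlying libraries.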

How the results depend on the processing

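Depth limits what can be said of genes near 0 counts, and the unequal NT libraries and the GC trend limit the size of moderate changes. A threshold of 1 on the absolute log2 fold change gave 7138 DEGs, 3899 higher and 3239 lower. After the length and GC correction, which 13854 genes could enter, 1269 DEGs were higher and 918 lower. Upper-quartile normalization moved the median of all genes to 0.15 and gave 2110 higher and 1025 lower DEGs. DESeq2 gave 3215 DEGs and limma-voom 3114. With only the sh#87 and NT libraries in the fit there were 2960 DEGs. In that fit 9702 genes passed the adjusted p alone, against 11072 in the fit of all 9 libraries. Leaving out 1 library at a time gave between 2958 and 3514 DEGs, and between 47 (without sh#16 replicate 2) and 86 (without NT replicate 3) genes that differed between the shRNAs, or 48 without sh#87 replicate 2. limma-voom with a weight per group gave 119 such genes. With the replicate block there were 3075 DEGs, of which 1935 were higher, and 52 genes that differed between the shRNAs. The block is a mere number here, since same-numbered libraries correlated in their deviations at -0.003, -0.041 and -0.084.

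MECOM fell past the adjusted p under each alternative run, with a log2 fold change between -2.34 (without NT replicate 3) and -1.79 (length and GC correction). Of 3666 values of the named genes under alternatives, 10 lost and 9 gained a call, and none changed sign. The calls lost were those of HIF1A, MYNN, MT-ND4 and MT-ND5, and the calls gained those of FBL, MKI67, MNT and MXI1. Of 2316 counts over gene lists 124 moved by more than 1.5 times, in 37 of 116 counts. The cause of these moves was not tested.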
